A study of Mus musculus with 3 samples.

Results

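Mitochondrial ribosomal proteins are the nuclear-encoded proteins of the ribosome inside mitochondria, and their genes carry the symbols Mrpl (large subunit) and Mrps (small subunit) followed by a number. All rows of the deposited gene table whose symbol has that form were taken, with processed pseudogenes named -ps left out. The rule found 78 genes among the 56691 rows, 49 for the large and 29 for the small subunit, and it used no measured value. RNA was sequenced from organoids, which are epithelial cultures grown from stem-like cells in a gel, made from the corpus of the mouse stomach. There were 3 libraries, 1 per group. The first group, labelled Gpx4 KO-Mist1+, derives from mice with floxed Gpx4 alleles that also carry the Mist1Cre/ERT2 driver and an RFP reporter behind a loxP-flanked stop. The Mist1+ and Mist1- groups derive from mice with the same driver and reporter and are labelled wild type. In this system the tamoxifen-dependent Cre is expressed from the Mist1 locus, so recombination takes place in cells that use that promoter when tamoxifen acts. Donor mice were about 8 weeks old, and all organoids were kept in Matrigel in proliferative medium and carry the label P5. The labels do not say how many mice or organoid lines each library pools, so no value below has a replicate check, and every interval covers counting error only.

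The mitochondrial ribosome translates the few proteins encoded by mitochondrial DNA, all of them core subunits of the respiratory chain and ATP synthase. Its ribosomal RNAs come from the mitochondrial genome, whereas every protein is encoded in the nucleus, translated in the cytosol and imported. Some of these proteins descend from bacterial ribosomal proteins, and others were added to the mitochondrial particle during evolution. In the gastric corpus, mitochondria are abundant in acid-secreting parietal cells, and zymogen-secreting chief cells express Mist1.

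The libraries held 16396693 counts in labelled Gpx4 KO-Mist1+, 16187378 counts in Mist1+ and 14943918 counts in Mist1-. For a length of 1000 bases, 3 counts correspond to 0.183 FPKM in labelled Gpx4 KO-Mist1+, 0.185 FPKM in Mist1+ and 0.201 FPKM in Mist1- (FPKM, counts per kilobase of exon and scaled to the total of the library). Gpx4 had 2569 counts in the library labelled Gpx4 KO-Mist1+, 1998 counts in Mist1+ and 4399 counts in Mist1-, so this library was not below Mist1+ for the gene it is labelled as lacking. A count over the whole gene would also take in reads from exons outside a deleted stretch, and every direction given for this library rests on its label. Bhlha15, which encodes MIST1, had 370 counts in labelled Gpx4 KO-Mist1+, 580 counts in Mist1+ and 282 counts in Mist1-. All 5 epithelial markers were expressed. Of the parietal cell genes, Atp4b was at 0 in all 3 libraries, and Atp4a had 1.35 FPKM in labelled Gpx4 KO-Mist1+, 1.69 FPKM in Mist1+ and 1.03 FPKM in Mist1-. No marker of fibroblasts, endothelium, muscle or enteroendocrine cells reached 1 FPKM in any library. Of 6 immune markers only Cd68 reached 1 FPKM, and the summed immune level was 24.4 FPKM in labelled Gpx4 KO-Mist1+, 5.28 FPKM in Mist1+ and 4.53 FPKM in Mist1-. The other 5, Ptprc among them, were at 0 in labelled Gpx4 KO-Mist1+. The 8 gastric epithelial markers in the table summed to 2720 FPKM in labelled Gpx4 KO-Mist1+, 3482 FPKM in Mist1+ and 2160 FPKM in Mist1-, most of it Pgc and Cblif. Single markers differed in direction in Mist1+ against Mist1-, from a log2 ratio of -2.52 for Gkn2 and -1.74 for Tff2 to 1.64 for Muc6. The 10 proliferation markers summed to 350 FPKM in labelled Gpx4 KO-Mist1+, 567 FPKM in Mist1+ and 528 FPKM in Mist1-. The part of these differences in the results below was not tested.

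Promoter windows of 6 members are shown because they hold both ends of the range of ratios described below and examples of the motifs counted at the end. They were chosen after the values were seen. Each window runs from 250 bases before to 50 bases after a RefSeq transcript start on GRCm38.p6, is written 5′ to 3′ on the strand of the gene, and has motif matches in capitals. Mrps16 and Mrps21 had the lowest small-subunit ratios of Mist1+ to Mist1-. The Mrps16 window lies at chr14:20393441-20393740 on the minus strand and is 1 of 2 listed for this gene. Its capitals are ETS cores, read on the opposite strand, that begin 74 bases before the start and at base 25 of the transcript. The Mrps21 window lies at chr3:95871465-95871764 on the minus strand, with an ETS core that begins at base 19 of the transcript. Mrps18c had the lowest ratio of labelled Gpx4 KO-Mist1+ to Mist1+. Its window, chr5:100798509-100798808 on the plus strand, holds an E-box 163 bases and an ETS core 156 bases before the start. The Mrpl33 window, chr5:31613701-31614000 on the plus strand, holds an NRF1 core 11 bases and an ETS core 3 bases before the start. Mrps2 (chr2:28467816-28468115, plus strand) had the highest ratio of Mist1+ to Mist1-. Mrpl24 (chr3:87919294-87919593, plus strand) had the highest ratio of labelled Gpx4 KO-Mist1+ to Mist1+. Their windows hold none of the motifs searched. No motif was found for Mrpl12 either, which had one of the lowest ratios of Mist1+ to Mist1-. Because of how they were chosen, the windows shown cannot tell whether motif and ratio are linked, which was not tested.
Mrps16: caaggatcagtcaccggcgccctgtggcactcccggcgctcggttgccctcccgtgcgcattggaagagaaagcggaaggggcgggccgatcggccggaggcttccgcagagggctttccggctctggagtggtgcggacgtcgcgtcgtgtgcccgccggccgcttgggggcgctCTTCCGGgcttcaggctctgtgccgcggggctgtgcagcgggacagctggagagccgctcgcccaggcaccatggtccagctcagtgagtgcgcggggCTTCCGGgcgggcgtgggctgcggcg
Mrps21: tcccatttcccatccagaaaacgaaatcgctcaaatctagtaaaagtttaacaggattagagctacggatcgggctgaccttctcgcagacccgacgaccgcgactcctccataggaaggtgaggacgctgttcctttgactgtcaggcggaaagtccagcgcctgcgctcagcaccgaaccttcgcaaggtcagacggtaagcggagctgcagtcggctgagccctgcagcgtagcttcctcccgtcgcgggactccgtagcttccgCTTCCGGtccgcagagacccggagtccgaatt
Mrps18c: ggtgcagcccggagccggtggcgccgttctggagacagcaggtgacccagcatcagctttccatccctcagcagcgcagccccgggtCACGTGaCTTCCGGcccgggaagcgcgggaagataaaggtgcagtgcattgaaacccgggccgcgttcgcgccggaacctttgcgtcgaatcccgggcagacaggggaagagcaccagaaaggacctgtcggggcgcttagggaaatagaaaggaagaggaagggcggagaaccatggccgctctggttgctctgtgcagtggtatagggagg
Mrpl33: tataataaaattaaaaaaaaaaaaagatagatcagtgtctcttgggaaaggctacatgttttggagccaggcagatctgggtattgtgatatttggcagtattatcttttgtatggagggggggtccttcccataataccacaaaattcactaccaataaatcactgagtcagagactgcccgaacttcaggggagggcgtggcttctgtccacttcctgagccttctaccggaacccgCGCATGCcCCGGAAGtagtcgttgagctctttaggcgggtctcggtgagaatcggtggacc
Mrps2: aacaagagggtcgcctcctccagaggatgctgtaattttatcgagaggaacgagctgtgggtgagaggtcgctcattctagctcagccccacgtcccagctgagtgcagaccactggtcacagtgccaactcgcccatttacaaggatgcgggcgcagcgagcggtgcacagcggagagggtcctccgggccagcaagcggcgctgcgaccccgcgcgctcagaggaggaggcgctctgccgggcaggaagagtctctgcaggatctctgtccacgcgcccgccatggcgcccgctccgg
Mrpl24: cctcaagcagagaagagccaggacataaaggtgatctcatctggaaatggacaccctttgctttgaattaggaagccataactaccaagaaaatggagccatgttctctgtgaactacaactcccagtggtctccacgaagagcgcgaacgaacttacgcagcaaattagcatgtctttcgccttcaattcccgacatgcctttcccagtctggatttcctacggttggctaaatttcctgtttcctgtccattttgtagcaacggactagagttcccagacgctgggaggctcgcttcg

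All 78 members were detected in all 3 libraries and all passed the filter of 1 FPKM in at least 1 library. Together they took 2671 CPM (counts scaled to a common library total) in labelled Gpx4 KO-Mist1+ (95% Poisson interval 2646 to 2696), 3107 in Mist1+ (3080 to 3134) and 5348 in Mist1- (5311 to 5385). The median member level was 11.7 FPKM in labelled Gpx4 KO-Mist1+, 15.3 FPKM in Mist1+ and 26.6 FPKM in Mist1-. Mist1- was thus the high library for the set, and labelled Gpx4 KO-Mist1+ the low one. In bulk libraries such as these, fewer cells of a type and less RNA per cell cannot be told apart. Levels ran over a wide range, from 0.770 to 49.1 FPKM in labelled Gpx4 KO-Mist1+, from 1.25 to 56.9 FPKM in Mist1+ and from 2.54 to 140 FPKM in Mist1-. Large-subunit genes had medians of 13.1 FPKM in labelled Gpx4 KO-Mist1+, 17.7 FPKM in Mist1+ and 30.0 FPKM in Mist1-. Small-subunit genes had medians of 9.70 FPKM in labelled Gpx4 KO-Mist1+, 11.7 FPKM in Mist1+ and 17.8 FPKM in Mist1-. Single members were highest in Mist1- for 77 of 78 genes, an order held by 32.5% of the 13351 genes kept by the filter. Labelled Gpx4 KO-Mist1+ was the lowest library for 67 of 78 members, against 34.6% of genes. Mist1+ was the lowest library for the other 11 members, against 18.2% of genes.

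**Figure D1:**
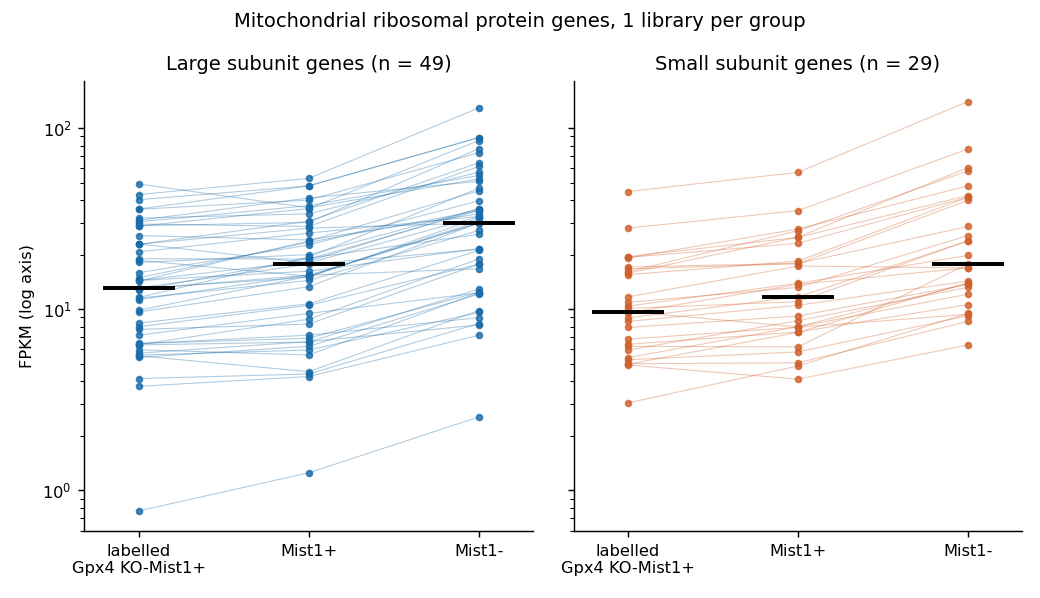
FPKM on a log axis of each large-subunit gene (49, left) and small-subunit gene (29, right) in the libraries labelled Gpx4 KO-Mist1+, Mist1+ and Mist1-, 1 point per gene and library, with lines joining a gene and black bars at the medians. The Mist1- point is the highest for every gene but Mrps2, and the large-subunit medians stand at 13.1 FPKM in labelled Gpx4 KO-Mist1+, 17.7 FPKM in Mist1+ and 30.0 FPKM in Mist1-.

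The most abundant members per length were Mrps21, Mrpl12, Mrpl34, Mrpl18 and Mrpl54. Mrps21, the counterpart of a small bacterial protein, had 44.6 FPKM in labelled Gpx4 KO-Mist1+, 56.9 FPKM in Mist1+ and 140 FPKM in Mist1-. Mrpl12, which forms the flexible stalk that engages translation factors, had 42.9 FPKM in labelled Gpx4 KO-Mist1+, 52.7 FPKM in Mist1+ and 129 FPKM in Mist1-. Both were well apart from the rest in Mist1-, where the upper quartile of large-subunit genes was 46.5 FPKM. At the bottom of the range stood Mrpl53, Mrpl48, Mrps10, Mrpl47 and Mrps25. Mrpl53, a protein without a bacterial counterpart, had 10 counts in labelled Gpx4 KO-Mist1+, 16 counts in Mist1+ and 30 counts in Mist1-. The whole Mrpl53 gene (chr6:83109040-83109939, GRCm38) lies inside Gm42688 on the same strand in the table, so how reads were divided between them is uncertain. Per-length levels of some members are also uncertain because the exonic length in the table exceeds 2 times the longest coding transcript in GENCODE M21 for 19 members. The widest such gap among the genes described here was Mrpl33, at 7326 bases in the table against 478 bases for the transcript.

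Mitochondrial ribosomal protein genes were lower in Mist1+ than in Mist1- organoids as a group and almost without exception. Their summed counts, scaled to library totals, were 0.581 times the Mist1- level (95% interval 0.574 to 0.587). The ratio was 0.582 for the large subunit (0.574 to 0.590) and 0.580 for the small subunit (0.568 to 0.591), so the subunits differed by less than counting error. On the log2(FPKM + 1) scale the median ratio of Mist1+ to Mist1- was -0.81 over all members, -0.85 over the large and -0.74 over the small subunit, beside 0.15 over all genes kept. The ratio was below 0 for 77 of 78 members, against 40.5% of all genes. In all, 19 members were at least 2-fold lower in Mist1+ (11 large, 8 small), against 5.73% of genes, and 0 were at least 2-fold higher, against 7.88% of genes. These counts depend on the scaling. With TPM, FPKM rescaled to a common sum, 2 members were at least 2-fold lower, a share below the 3.82% of all genes, and with median ratio scaling 41 were, against 9.13% of genes. With a pseudocount of 5 there were 8, against 2.97% of genes. On the deposited FPKM at 1.5-fold, 53 members were lower, against 15% of genes.

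The lowest ratio belonged to Mrps16, the counterpart of a bacterial protein needed early in small-subunit assembly, whose loss causes a mitochondrial disease in humans. Mrps16 (chr14:20389304-20393634, minus strand, GRCm38) had 6.19 FPKM in Mist1+ (5.49 to 6.95) and 17.8 FPKM in Mist1- (16.5 to 19.1). This is a log2 ratio of -1.38, with scaled counts 0.348 times those of Mist1- (0.303 to 0.400). Next came Mrpl52, a protein particular to mitochondrial ribosomes, with 30.1 FPKM in Mist1+ and 76.8 FPKM in Mist1-, a log2 ratio of -1.32. Mrps21 (chr3:95862634-95871519, minus strand) had a log2 ratio of -1.28 and Mrpl12 (chr11:120484613-120489065, plus strand) one of -1.27. Mrps21 and Mrpl12 were the most abundant members in Mist1-, but that level is also the denominator of the ratio. Mrpl34 and Mrpl18, next in abundance in Mist1-, both had a log2 ratio of -0.87. Mrps12, which sits at the decoding centre, had 421 counts in Mist1+ and 940 counts in Mist1-, a log2 ratio of -1.24. Mrpl54 followed at -1.23 and Mrpl20, the counterpart of a bacterial large-subunit assembly protein, at -1.22. The remaining members past 2-fold were Mrpl11, Mrpl14, Mrpl21, Mrpl32, Mrpl33, Mrpl36, Mrpl51, Mrps18c, Mrps24, Mrps28, Mrps33 and Mrps36, with log2 ratios between -1.13 and -1.01. Mrps36 is now counted with the 2-oxoglutarate dehydrogenase complex instead of the ribosome in mammals, and the median was -0.81 without it as well.

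A few members hardly differed between Mist1+ and Mist1-. Mrps2, a small-subunit protein with a bacterial counterpart, had 816 counts and 17.3 FPKM in Mist1+, against 739 counts and 16.9 FPKM in Mist1-. Its count ratio of 1.02 has an interval of 0.922 to 1.13, and Mrps2 (chr2:28468066-28471178, plus strand) was the one member not lower in Mist1+ on the deposited FPKM scale. Mrpl16, at 28.0 FPKM in Mist1+ and 29.9 FPKM in Mist1-, and Mrpl37, at 15.4 FPKM in Mist1+ and 16.7 FPKM in Mist1-, also had intervals that reach a ratio of 1. Next in order were Mrps5 at a log2 ratio of -0.21, Mrpl44 and Mrpl19 at -0.27, and Mrps18b and Mrpl1 at -0.28. Mrpl44 belongs to a family of RNases and Mrps5 lies near the entry channel for messenger RNA.

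Between labelled Gpx4 KO-Mist1+ and Mist1+, which the labels set apart by the Gpx4 allele, members differed less. Summed counts were 0.860 times the Mist1+ level (0.849 to 0.871), with 0.876 for the large subunit (0.862 to 0.889) and 0.826 for the small subunit (0.808 to 0.845). The intervals of the subunits do not meet, but they leave out the spread between genes. Mrpl24, a large-subunit gene, alone had 1815 counts in labelled Gpx4 KO-Mist1+ against 1324 counts in Mist1+. The sums therefore do not settle whether the subunits differ. Median log2 ratios of labelled Gpx4 KO-Mist1+ to Mist1+ were close together, at -0.25 for the large and -0.27 for the small subunit, beside -0.09 over all genes. The ratio was below 0 for 67 of 78 members, against 58.8% of genes. No member was 2-fold apart, with 0 lower against 2.74% of genes and 0 higher against 4.81% of genes. At 1.5-fold, 5 members were lower, a share below the 11.3% of genes, and 0 were higher, against 10.6% of genes. The 10 proliferation markers were all lower in labelled Gpx4 KO-Mist1+ than in Mist1+, with a median log2 ratio of -0.69, and their part in the ratios of the members was not tested.

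The 5 members past 1.5-fold on the log2(FPKM + 1) scale were Mrps18c, Mrpl27, Mrpl20, Mrps12 and Mrpl49. Mrps18c (chr5:100798627-100804471, plus strand), 1 of 3 mammalian relatives of a single bacterial small-subunit protein, had 16.1 FPKM in labelled Gpx4 KO-Mist1+ (14.3 to 18.1) and 27.1 FPKM in Mist1+ (24.7 to 29.7). Its log2 ratio was -0.72. Mrpl27, whose bacterial counterpart reaches into the peptidyl transferase centre, had 14.3 FPKM in labelled Gpx4 KO-Mist1+ and 23.8 FPKM in Mist1+, a log2 ratio of -0.70. Mrpl20 followed at -0.69, Mrps12 at -0.63 and Mrpl49 at -0.62. Mrps25, a mitochondrial small-subunit protein, was next among small-subunit genes outside this group at -0.54. The group depends on the pseudocount. Without it, Mrps25 was also past 1.5-fold, with counts scaled to totals 1.60-fold lower (1.39 to 1.84). So were Mrpl46 at 1.54-fold, Mrpl4 at 1.51-fold and Mrpl53, with few counts, at 1.62-fold.

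Ratios above 0 were found for 11 members, and for 6 of them, Mrpl24, Mrpl45, Mrpl30, Mrps9, Mrpl23 and Mrps10, the counting interval also lay above 1. Mrpl24 (chr3:87919506-87923672, plus strand), near the exit of the peptide tunnel, had 1815 counts and 49.1 FPKM in labelled Gpx4 KO-Mist1+ (46.9 to 51.4), against 1324 counts and 36.3 FPKM in Mist1+ (34.3 to 38.3). Its log2 ratio of 0.43 was the highest of all members, and Mrpl24 was also the most abundant member in labelled Gpx4 KO-Mist1+. Mrpl45, which in mammals anchors the ribosome to the inner membrane, had 22.9 FPKM in labelled Gpx4 KO-Mist1+ and 18.0 FPKM in Mist1+, a log2 ratio of 0.33. Mrpl23, another protein at the tunnel exit, had a log2 ratio of 0.24. Mrpl30 stood at 0.28, Mrps9 at 0.25 and Mrps10 at 0.21.

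Against Mist1-, the labelled Gpx4 KO-Mist1+ library was lower for every member. This comparison shares a library with each of the others and is given for its own values. Summed counts were 0.499 times the Mist1- level (0.494 to 0.505), with 0.509 for the large subunit (0.502 to 0.517) and 0.479 for the small subunit (0.469 to 0.489). The median log2 ratio of labelled Gpx4 KO-Mist1+ to Mist1- was -1.02, with -0.98 for the large and -1.08 for the small subunit, beside 0.09 over all genes. The ratio was below 0 for 78 of 78 members, against 45.2% of genes. Of these, 41 were at least 2-fold lower (24 large, 17 small), against 8.56% of genes, and 0 were at least 2-fold higher, against 11.6% of genes. At 1.5-fold, 66 members were lower, against 20.1% of genes.

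Mrpl20 (chr4:155802878-155809975, plus strand) was the most different, with 317 counts and 11.6 FPKM in labelled Gpx4 KO-Mist1+, against 1156 counts and 46.5 FPKM in Mist1-. Its log2 ratio was -1.91, with scaled counts 0.250 times those of Mist1- (0.220 to 0.283). Mrps12 had 15.8 FPKM in labelled Gpx4 KO-Mist1+ and 60.5 FPKM in Mist1-, a log2 ratio of -1.87. Mrps18c stood at -1.79, Mrps21 at -1.63, Mrpl27 at -1.59 and Mrpl12 at -1.56. The members nearest to equal levels were Mrpl24, with 49.1 FPKM in labelled Gpx4 KO-Mist1+ and 52.3 FPKM in Mist1-, and then Mrps9 and Mrps10 at log2 ratios of -0.30 and -0.31. The Mrpl24 count ratio of 0.938 has an interval that begins at 0.878 and reaches 1. On the TPM scale its ratio was above 0. Mrpl16, Mrpl38 and Mrps5 followed at -0.37, -0.38 and -0.40.

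**Figure D2:**
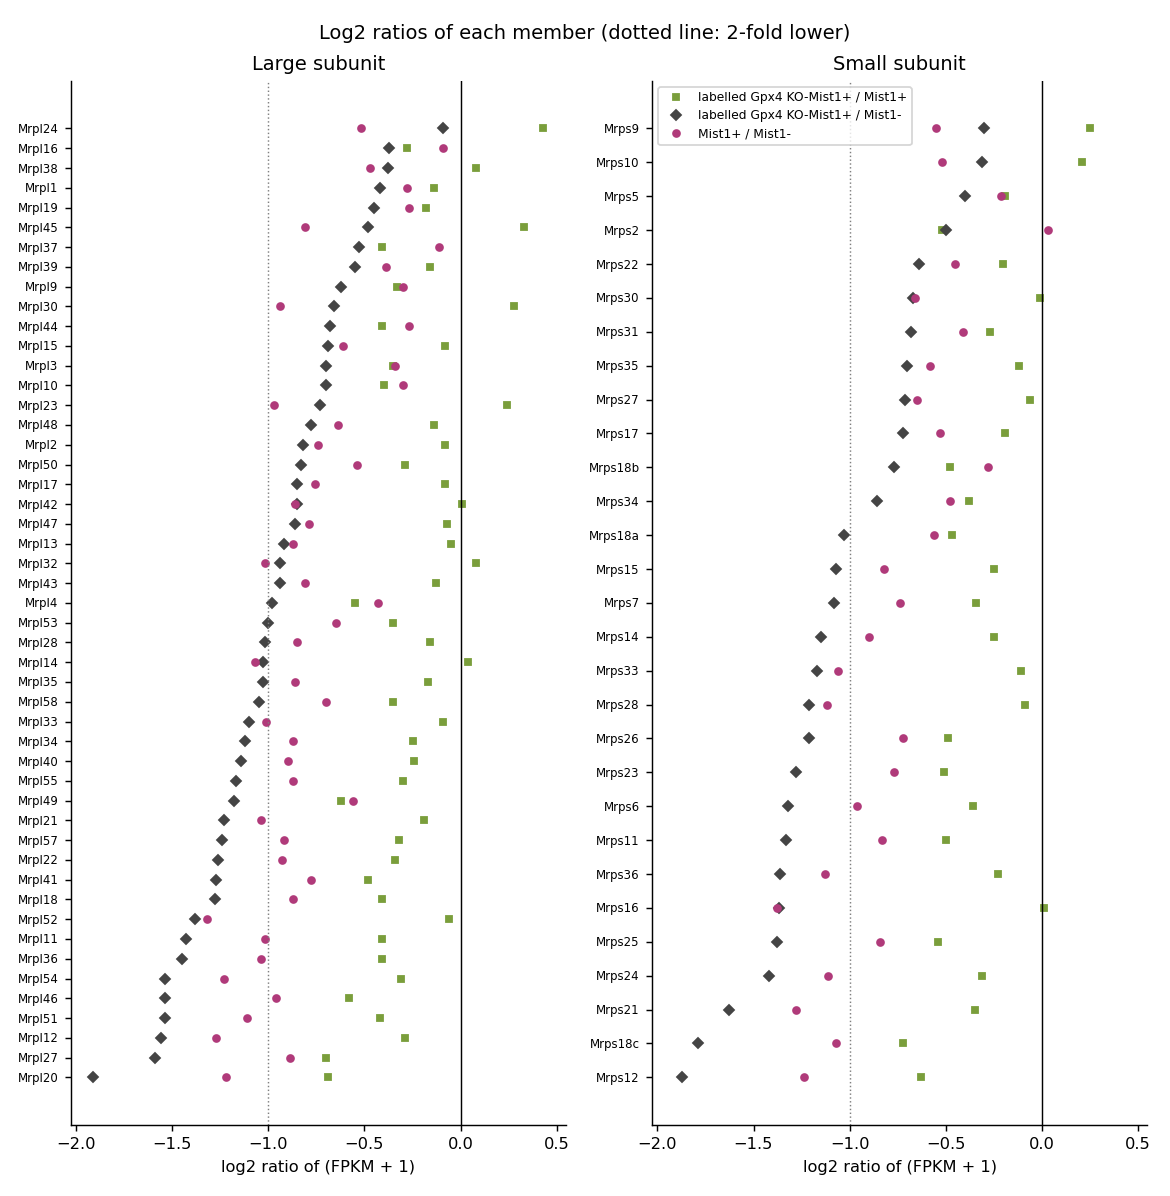
Log2 ratio of (FPKM + 1) for each large-subunit gene (left) and small-subunit gene (right) in 3 comparisons, labelled Gpx4 KO-Mist1+ to Mist1+ (green squares), labelled Gpx4 KO-Mist1+ to Mist1- (grey diamonds) and Mist1+ to Mist1- (purple circles), ordered by the grey values. Diamonds run from -0.09 at Mrpl24 to -1.91 at Mrpl20 and none lies right of 0, while squares lie between -0.72 and 0.43.

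Members differed among themselves by more than counting error, and neither subunit nor evolutionary class separated them. The classes were assigned after values were seen and follow the place a protein takes in the particle. Of the Mrps18 paralogs only Mrps18c is therefore classed with a bacterial counterpart, although all 3 are related to the bacterial protein. In Mist1+ against Mist1-, the 29 large-subunit genes with a bacterial counterpart had a median log2 ratio of -0.87 and the 20 without one had -0.80. The 16 small-subunit genes with a bacterial counterpart had a median of -0.86, and the 13 without one had -0.65. The ranges overlapped in full or nearly so, for instance from -1.38 to 0.03 and from -1.13 to -0.28 in the small subunit. Symbols do not always give the place in the particle, since Mrps18a and Mrps30 are large-subunit proteins in the mammalian structure. With these moved, the medians of Mist1+ against Mist1- were -0.81 for 51 large and -0.77 for 27 small subunit genes.

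The 3 paralogs Mrps18a, Mrps18b and Mrps18c spread widely. Mrps18a had 5.95 FPKM in labelled Gpx4 KO-Mist1+, 8.64 FPKM in Mist1+ and 13.2 FPKM in Mist1-. Mrps18b had 9.52 FPKM in labelled Gpx4 KO-Mist1+, 13.7 FPKM in Mist1+ and 16.9 FPKM in Mist1-. Mrps18c, at 16.1 FPKM in labelled Gpx4 KO-Mist1+, 27.1 FPKM in Mist1+ and 58.0 FPKM in Mist1-, was the most abundant of the paralogs in all 3 libraries. Counts in Mist1+ were 2.14-fold below Mist1- for Mrps18c (1.91 to 2.40), but 1.53-fold for Mrps18a (1.37 to 1.72) and 1.23-fold for Mrps18b (1.09 to 1.40), intervals that do not overlap between Mrps18c and the other two. Mrpl58, a peptidyl-tRNA hydrolase that is also built into the large subunit, had 8.00 FPKM in labelled Gpx4 KO-Mist1+, 10.5 FPKM in Mist1+ and 17.7 FPKM in Mist1-. Mrps30 had 5.00 FPKM in labelled Gpx4 KO-Mist1+, 5.06 FPKM in Mist1+ and 8.56 FPKM in Mist1-, so the libraries labelled Gpx4 KO-Mist1+ and Mist1+ were alike for it within counting error.

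Ratios against Mist1- moved with exonic length across the transcriptome from about the second of 10 length groups on, which bears on members because they are short. Their median exonic length was 2394 bases, against 3766 bases for all genes kept. In Mist1+ against Mist1-, genes other than members had a median log2 ratio of -0.03 in the shortest group (27 to 672 bases, with 1 member), -0.51 in the group of 672 to 1560 bases and 0.71 in the longest group. The 23 members in the group of 672 to 1560 bases had a median of -0.96, and the 7 members between 6953 and 9234 bases had -0.64 beside 0.54 for other genes. Each member was therefore set against other genes of its own length group. The median difference was -0.60 in Mist1+ against Mist1-, with 74 of 78 members below genes of like length, against 50.3% of all genes. It was -0.18 in labelled Gpx4 KO-Mist1+ against Mist1+, with 60 of 78 below, against 50.1% of genes. The third comparison, labelled Gpx4 KO-Mist1+ against Mist1-, gave -0.82, with 77 of 78 below, against 50.3% of genes. The members not below like-length genes in Mist1+ against Mist1- were Mrpl10, Mrpl44, Mrps18b and Mrps2, at 0.05 to 0.13. The longest coding transcript was also used as the length, over 11049 genes. In Mist1+ against Mist1- the median difference was then -0.35, with 64 of 78 below, against 50.2% of genes. For labelled Gpx4 KO-Mist1+ against Mist1+ it was -0.16, with 58 below, against 50.1% of genes. For labelled Gpx4 KO-Mist1+ against Mist1- it was -0.48, with 69 below, against 50.2% of genes. Under that length the members had a median of 1327 bases, and the shortest group of other genes was itself low. Its median log2 ratio was -0.76 in Mist1+ against Mist1- and -0.85 in labelled Gpx4 KO-Mist1+ against Mist1-. The distance from genes of like length was therefore smaller under that length, and how much of the ratios belongs to length was not tested further.

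**Figure D3:**
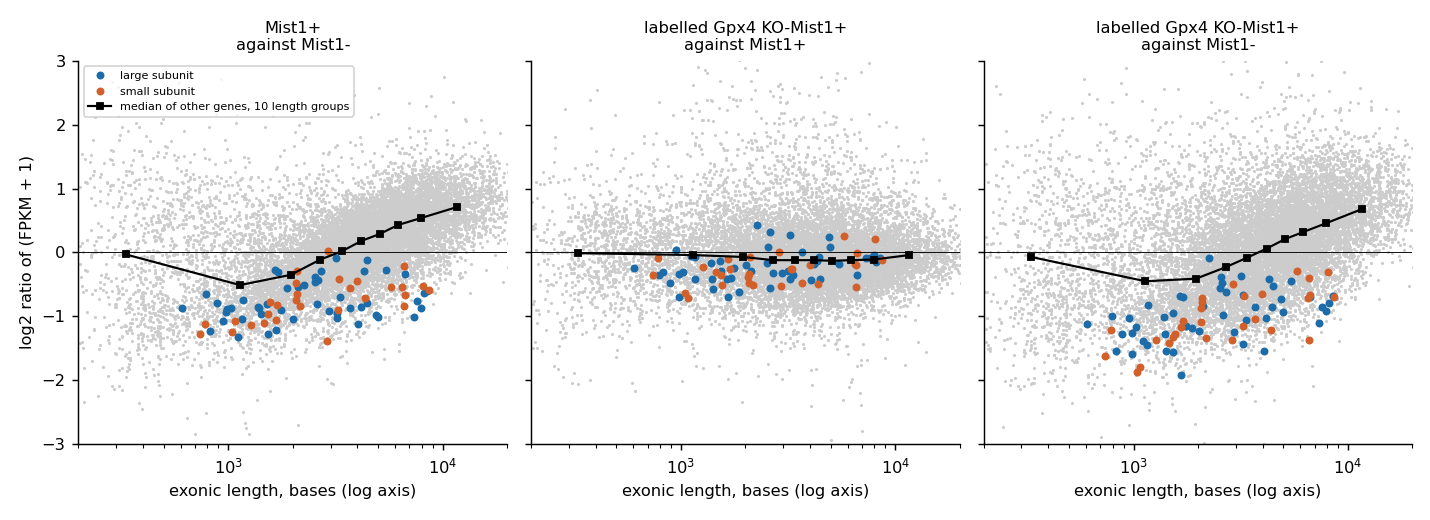
Log2 ratio of (FPKM + 1) against exonic length (log axis, bases) for genes kept by the filter (grey), large-subunit members (blue) and small-subunit members (orange) in 3 comparisons, with black squares at the medians of other genes in 10 length groups; genes beyond the axes are not drawn. In both comparisons with Mist1- the black line drops from the shortest to the next group and then climbs, to 0.71 and 0.68 in the longest group. All but 4 members lie under it in Mist1+ against Mist1-, and all but Mrpl24 in labelled Gpx4 KO-Mist1+ against Mist1-, while it is nearly flat for labelled Gpx4 KO-Mist1+ against Mist1+.

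The scaling of the libraries also matters, since the FPKM columns summed to 310243 in labelled Gpx4 KO-Mist1+, 302663 in Mist1+ and 379460 in Mist1-. Rescaling to a common sum (TPM) moved the median log2 ratio of all genes in Mist1+ against Mist1- to 0.47, with 510 genes at least 2-fold lower and 3101 higher, where the deposited FPKM gave 765 lower and 1052 higher. CPM gave 671 lower and 1413 higher, and median ratio scaling gave 1219 lower and 643 higher. For labelled Gpx4 KO-Mist1+ against Mist1- the deposited FPKM gave 1143 genes lower and 1553 higher, TPM 797 lower and 3223 higher, and median ratio scaling 1505 lower and 1275 higher. Apart from the division by gene length, which cancels in a ratio, each scaling multiplies all genes of a library by 1 factor. Between scalings, the distance of the members' median from that of all genes can differ only through the pseudocount and small deviations in deposited FPKM. In Mist1+ against Mist1- it stood at -0.95 with FPKM, -0.99 with TPM and -1.0 with median ratio scaling. For labelled Gpx4 KO-Mist1+ against Mist1+ it stood at -0.17, -0.17 and -0.16. For labelled Gpx4 KO-Mist1+ against Mist1- it stood at -1.11, -1.15 and -1.14. On the TPM scale the member ratios were below 0 for 68 of 78 members in Mist1+ against Mist1-, 69 in labelled Gpx4 KO-Mist1+ against Mist1+ and 77 in labelled Gpx4 KO-Mist1+ against Mist1-. In that order, the median of all genes on this scale was 0.47, -0.14 and 0.37. Below that median lay 78, 57 and 78 of the 78 members.

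Other genes of mitochondrial translation were followed through 8 lists, of which the mitochondrial ribosomal RNAs were added after values were seen. Mitoribosome proteins with other symbols (5 genes) had a median log2 ratio of -1.05 in Mist1+ against Mist1-, where 3 of 5 were at least 2-fold lower. Of these, Chchd1 had 34.2 FPKM in Mist1+ and 86.0 FPKM in Mist1-, and Aurkaip1 had 20.9 FPKM in Mist1+ and 47.5 FPKM in Mist1-. Ptcd3, an RNA-binding protein of the small subunit, had a log2 ratio of 0.16 and Dap3, its GTP-binding protein, one of -0.47. In labelled Gpx4 KO-Mist1+ against Mist1+ the median of the list was 0, with 3 of 5 above 0, Dap3 at 0.34 and Aurkaip1 at 0.22 among them. The list had a median of -0.93 in labelled Gpx4 KO-Mist1+ against Mist1-, where 2 of 5 were at least 2-fold lower, Chchd1 at -1.42 and Gadd45gip1 at -1.05.

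Medians of the lists of factors that work on the ribosome lay nearer to 0 than those of the members before gene length was considered. The 13 translation factors had a median log2 ratio of -0.03 in Mist1+ against Mist1-, with 0 past 2-fold in either direction. Tsfm and Tufm, which encode the elongation factors that exchange nucleotide and deliver aminoacyl-tRNA, were the lowest at -0.72 and -0.60. The 17 mitochondrial aminoacyl-tRNA synthetases had a median of 0.12, from -0.57 at Fars2 to 0.47 at Iars2. The 25 genes of ribosome assembly and rRNA modification had a median of -0.11, with Malsu1 lowest at -0.96 and Dhx30 highest at 0.40. The 13 genes of mitochondrial DNA transcription and maintenance had a median of -0.25, from -1.26 at Slirp, which stabilizes mitochondrial messenger RNAs, to 0.77 at Polrmt, the mitochondrial RNA polymerase. Set against genes of like length, the medians in Mist1+ against Mist1- were -0.25 for translation factors (9 of 13 below), -0.15 for synthetases (14 of 17), -0.31 for assembly (22 of 25) and -0.11 for transcription and maintenance (9 of 13), beside -0.60 for the members. The medians of these lists in labelled Gpx4 KO-Mist1+ against Mist1+ lay between -0.19 and -0.06, and none of their genes was at least 2-fold apart on the log2(FPKM + 1) scale. Without the pseudocount Sars2 was, with 136 counts in labelled Gpx4 KO-Mist1+ and 299 counts in Mist1+, 2.23-fold lower after scaling to totals (1.81 to 2.75). Set against Mist1-, the labelled Gpx4 KO-Mist1+ library had medians of -0.22 for translation factors, -0.27 for synthetases, -0.29 for assembly and 0.06 for transcription and maintenance. Single genes at least 2-fold lower there were Tsfm at -1.08, Ddx28, an RNA helicase of large-subunit assembly, at -1.03, and Slirp.

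The products of the mitochondrial genome showed no common direction. The 13 mitochondrially encoded proteins had a median log2 ratio of -0.14 in Mist1+ against Mist1-, with mt-Nd3 lowest at -1.69 and mt-Nd5 highest at 1.60. The mt-Nd3 value rests on 19 counts in Mist1+ and 68 counts in Mist1-. Counts ran from 3 for mt-Atp8 in Mist1- to 501125 for mt-Co1 in labelled Gpx4 KO-Mist1+, so the medians mix genes with very few reads and very many. The median of the 13 was also -0.14 in labelled Gpx4 KO-Mist1+ against Mist1+, and in labelled Gpx4 KO-Mist1+ against Mist1- it was -0.34. Among genes with at least 9205 counts in every library, mt-Co1 had 0.75 in labelled Gpx4 KO-Mist1+ against Mist1+. The others of that kind, mt-Cytb, mt-Nd1, mt-Nd2, mt-Nd4, mt-Nd5 and mt-Nd6, lay between -0.42 and -0.14. Genes with at most 1227 counts lay between -0.18 and 0.47 in that comparison. The small ribosomal RNA, mt-Rnr1, had 660 FPKM in labelled Gpx4 KO-Mist1+, 295 FPKM in Mist1+ and 872 FPKM in Mist1-. The large one, mt-Rnr2, had 839 FPKM in labelled Gpx4 KO-Mist1+, 655 FPKM in Mist1+ and 771 FPKM in Mist1-. Mist1+ was the low library for both, whereas most members were lowest in labelled Gpx4 KO-Mist1+. Genes on the mitochondrial genome took 5.14% of counts in labelled Gpx4 KO-Mist1+, 4.26% in Mist1+ and 3.57% in Mist1-. Without mt-Co1 the shares were 2.08% in labelled Gpx4 KO-Mist1+, 2.45% in Mist1+ and 2.17% in Mist1-, in another order.

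Cytosolic ribosomal proteins, the proteins of the ribosome outside mitochondria, had a different order of libraries. Of 85 in the table, 82 passed the filter, and all 82 were highest in Mist1-, with a median log2 ratio of -1.34 in Mist1+ against Mist1-. Mist1+ was the lowest library for 78 of 82, against 18.2% of genes and 11 of 78 mitochondrial ribosomal protein genes. In labelled Gpx4 KO-Mist1+ against Mist1+ their median was 0.38 and 78 of 82 were above 0, against 40.7% of genes, whereas mitochondrial ribosomal proteins had a median of -0.26 and 11 of 78 above 0. In labelled Gpx4 KO-Mist1+ against Mist1- the cytosolic median was -0.95, beside -1.02 for the mitochondrial one.

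**Figure D4:**
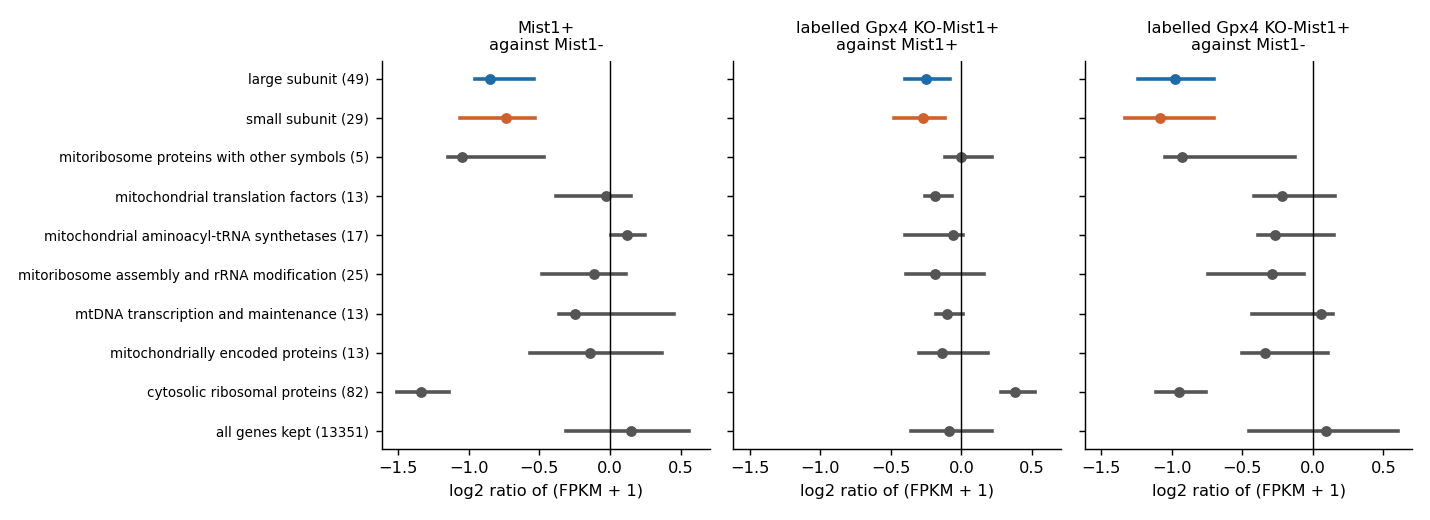
Median (point) and interquartile range (bar) of log2 ratios of (FPKM + 1) for members of each subunit, 7 other gene lists and all genes kept, with the number of genes in brackets, in 3 comparisons. Cytosolic ribosomal proteins lie right of 0 at 0.38 in labelled Gpx4 KO-Mist1+ against Mist1+, where both subunits lie at -0.25 and -0.27.

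Promoter windows were found for 69 of the 78 members in the RefSeq table (75 windows of 300 bases) and searched on both strands for 4 motifs. These were the core of the ETS family, CCGGAAG, of NRF1, GCATGCG, and of YY1, GATGGCG, and the E-box CACGTG, which reads the same on both strands. ETS-family factors such as GABP, NRF1 and YY1 are known regulators of nuclear genes for mitochondrial proteins. Matches to different motifs do not overlap in the windows printed above. The ETS core was in a window of 26 members, 37.7%, against 21.3% of the 9248 genes kept that have a window and 9.93% of all 27025 genes in the table. Cytosolic ribosomal proteins stood at 40.7%, so a high share was not limited to mitochondrial ones. NRF1 and YY1 cores were each found for 8 members (11.6%), beside 7.43% and 7.82% of genes kept and 4.01% and 4.04% of all genes. The E-box was found for 5 members (7.25%), beside 12% of genes kept and 8.09% of all. No motif was found for 31 members. Set against Mist1-, labelled Gpx4 KO-Mist1+ had a median log2 ratio of -1.19 for the 26 members with an ETS core and -0.86 for the 43 without, with ranges of -1.87 to -0.64 and -1.91 to -0.09 that overlap over most of their length. In Mist1+ against Mist1- the medians were -0.87 with and -0.81 without the core. Against Mist1+, the labelled Gpx4 KO-Mist1+ library had medians of -0.34 with and -0.25 without it.

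**Figure D5:**
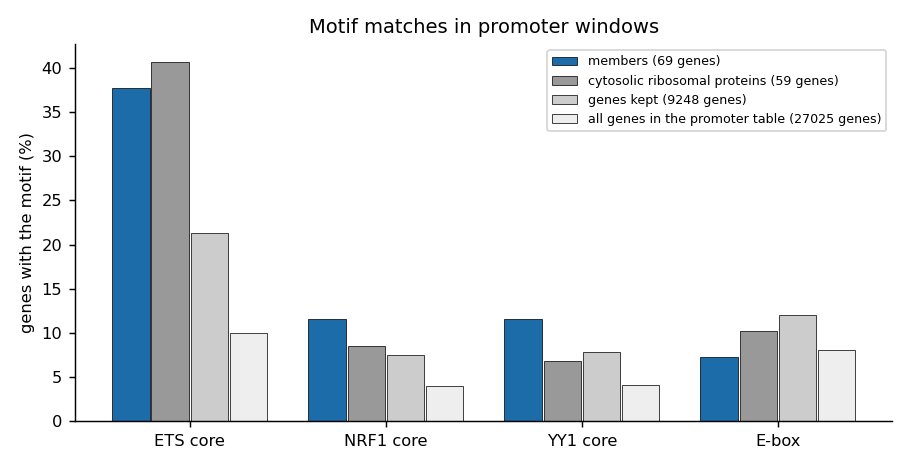
Share of genes (%) with a match to each of 4 motifs in a promoter window, for members (69 genes), cytosolic ribosomal proteins (59), genes kept by the filter (9248) and all genes in the promoter table (27025). The ETS core stands out at 37.7% of members, against 21.3% of genes kept, and the E-box is the motif with a lower share among members than among genes kept.

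Reads shared with other genes limit single values. Another gene of the table is overlapped by 41 members, and 23 of these overlap one with at least 50 counts. Whether counting used strand is not given in the sources used here, so such reads cannot be assigned with certainty. Mrps25 overlaps Nr2c2 on the opposite strand, which had 619 counts in labelled Gpx4 KO-Mist1+, 590 counts in Mist1+ and 69 counts in Mist1-. Mrps34 overlaps Mapk8ip3 in the same way. The 37 members that overlap no gene had a median log2 ratio of -0.86 in Mist1+ against Mist1-. Pseudogene rows exist for Mrps36, Mrpl27, Mrpl23 and Mrpl48, with at most 27 counts in a library, and reads that fit both copies could have been lost or shared.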

How the data were processed

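RNA-seq of 3 libraries was analysed from 1 deposited table, which per the file headers holds for each gene and library a count (whole reads per gene) and an FPKM value calculated by the authors. Deposited FPKM differed from count divided by exonic length and column total by at most 2.77% for genes with at least 50 counts. The submitters' processing notes name cutadapt 1.9.1, HISAT2 2.2.1, HTSeq 0.6.1 and GRCm38.p5. The table's own coordinates equal those of GENCODE M21 (GRCm38) for 2.83% of shared identifiers, so gene positions are given from M21, and the table's coordinates served only to find overlaps and neighbours. Raw reads were not analysed here.

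Genes with at least 1 FPKM in at least 1 library were kept (13351). Ratios are on the log2 scale after adding a pseudocount of 1 to each FPKM, which understates differences of low genes, and genes past 2-fold were counted. With 1 library per group no test was run. Intervals are 95%, exact Poisson for counts and FPKM and exact binomial for ratios of counts scaled to totals, and cover counting error only. Members were set against genes in 10 equal groups by exonic length. Members, lists, motifs and classes were chosen with earlier results of these data known. Named genes are those with the 3 highest and 3 lowest ratios per comparison and subunit, the 5 most and least abundant, members past 2-fold, and paralogs. Other members were named after their values were seen, namely those that moved with a neighbour, lay at an interval or overlap limit, or carry a motif. Alternatives were other pseudocounts, filters, cutoffs, scalings and lengths, and subsets of members. Calculations used pandas 2.3.3, numpy 2.4.6 and scipy 1.17.1 under Python 3.11.15, with lowess from statsmodels 0.14.6 and figures from matplotlib 3.10.9, and were tested on simulated data.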

Additional observations from a re-analysis of the deposited data

How the results depend on the processing

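With 1 library per group no library could be left out, and differences between cultures cannot be told apart from differences between groups. No paired analysis was possible because no replicate numbers exist. No median over all members changed sign under the alternatives run. In Mist1+ against Mist1-, labelled Gpx4 KO-Mist1+ against Mist1+ and labelled Gpx4 KO-Mist1+ against Mist1-, in that order, the median log2 ratio of the members was -0.85, -0.28 and -1.08 with a pseudocount of 0.1, and -0.65, -0.20 and -0.81 with 5. It was -0.53, -0.31 and -0.78 with TPM, -1.03, -0.17 and -1.15 with median ratio scaling, and -0.63, -0.17 and -0.84 with the length trend removed. In Mist1+ against Mist1- it was -0.83 with CPM and -0.86 for members that overlap no gene, an alternative added after the data were seen. The difference from genes of like length was -0.35, -0.16 and -0.48 with the longest coding transcript as length, also added later. The count of 19 members at least 2-fold lower in Mist1+ against Mist1- was 8 with a pseudocount of 5 (2.97% of all genes), 2 with TPM (3.82%) and 41 with median ratio scaling (9.13%). At cutoffs of 1.5-fold and 4-fold it was 53 (15%) and 0 (0.285%). The count of 41 in labelled Gpx4 KO-Mist1+ against Mist1- was 24 with a pseudocount of 5 (4.22% of all genes), 25 with TPM (5.97%), 66 at 1.5-fold (20.1%) and 0 at 4-fold (0.562%). In labelled Gpx4 KO-Mist1+ against Mist1+ it was 5 at 1.5-fold (11.3%), in place of 0. Of the alternative values over all members, 81 stayed close to the reported ones and 30 moved. Many of these 81 were counts of 0 members that stayed at 0, so the tally overstates how stable the results were. Of the values for single subunits, 20 stayed close and 34 moved. A stricter filter of 5 FPKM, no filter, leaving out members with a pseudogene row and adding members of other symbols were among those with no marked effect. Among the members, Mrpl53, at 10 to 30 counts, has the widest counting interval.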

Other observations

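Some members lie head to head with a gene on the opposite strand. In the table, 24 of 78 members (30.8%), beside 14.4% of the other genes kept, form such pairs, 23 in all, with a neighbour whose start lies within 1000 bases and points away, or overlaps by at most 500 bases. The pairs below were chosen after their values were seen. Mrpl46 and Mrps11, a large- and a small-subunit gene, overlap by 413 bases at their starts. Mrpl46 had 9.87 FPKM in labelled Gpx4 KO-Mist1+, 15.2 FPKM in Mist1+ and 30.6 FPKM in Mist1-, and Mrps11 had 4.97 FPKM in labelled Gpx4 KO-Mist1+, 7.45 FPKM in Mist1+ and 14.0 FPKM in Mist1-. Reads from the shared bases cannot be assigned with certainty.

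Some neighbours had ratios like those of the member in labelled Gpx4 KO-Mist1+ against Mist1+ and unlike them in Mist1+ against Mist1-. Mrps12 faces Sars2, the mitochondrial seryl-tRNA synthetase, at 172 bases. Their log2 ratios in labelled Gpx4 KO-Mist1+ against Mist1+ were -0.63 for Mrps12 and -0.91 for Sars2, and in Mist1+ against Mist1- they were -1.24 for Mrps12 and 0.31 for Sars2. Mrps18c faces Helq, a DNA helicase, at 29 bases. Their log2 ratios were -0.72 for Mrps18c and -0.63 for Helq in labelled Gpx4 KO-Mist1+ against Mist1+, and -1.07 for Mrps18c and 0.73 for Helq in Mist1+ against Mist1-. Mrpl27 and Eme1, an endonuclease subunit, had -0.70 and -0.67 in labelled Gpx4 KO-Mist1+ against Mist1+, and -0.89 and 0.02 in Mist1+ against Mist1-. Other pairs differed in the first comparison. Mrpl44 had -0.41 where Wdfy1 had 1.09, and Mrpl49 had -0.62 where Fau, which encodes a cytosolic ribosomal protein, had 0.55. Mrpl36 and Ndufs6, a respiratory complex subunit, were both lower in Mist1+ than in Mist1-, at -1.04 and -1.61, as were Mrpl32 and the proteasome subunit Psma2, at -1.02 and -1.23.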
